A study of Mus musculus with 144 samples.

Results

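The genes described here are 10 that encode acute phase proteins, which are Saa1, Saa2, Saa3, Hp, Hpx, Orm1, Orm2, Lcn2, Crp and Itih4, out of 55359 genes counted in 36 groups of 4 RNA-Seq libraries of primary mouse hepatocytes. They were chosen by name, as secreted proteins whose plasma level rises in inflammation in the mouse or in other mammals. The rule uses no measured value, but it was set with earlier results of these data known. All 10 were counted in all libraries, and all 10 passed the filter on low counts in all comparisons.

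The hepatocytes came from male mice aged 28 days. By the sample labels and the study's methods, libraries labelled WT came from C57BL/6NCrl mice, and libraries labelled PkmΔDRE came from a CRISPR-made line, backcrossed to C57BL/6N, that lacks in the whole body an intronic dioxin response element (DRE, with the core GCGTG) of Pkm, the pyruvate kinase gene. Cells were treated with 10 nM TCDD (2,3,7,8-tetrachlorodibenzo-p-dioxin, a ligand of the aryl hydrocarbon receptor, AHR) or with the DMSO vehicle, and were harvested on the first day at 2, 4, 8 and 12 h and then daily from 24 to 120 h, with 4 libraries for each label, treatment and hour. All groups shared a medium with dexamethasone, a synthetic glucocorticoid, and with insulin, transferrin and selenium, and serum was present only while the cells attached. Libraries are numbered as replicates 1 to 4 within a group in accession order, which only names them. The labels do not say which libraries came from separate animals or cultures, so the p-values measure the spread between these libraries, which may be technical.

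Acute phase proteins are made mainly by hepatocytes and released into the blood. Interleukin-6 and related cytokines act through the gp130 receptor and STAT3, and interleukin-1 and tumor necrosis factor act through NF-kB and C/EBP factors, while glucocorticoids enhance the response. Saa1 and Saa2 encode the serum amyloid A proteins that bind high density lipoprotein, Saa3 encodes a form also made outside the liver, Hp (haptoglobin) binds free hemoglobin, Hpx (hemopexin) binds free heme, Orm1 and Orm2 (orosomucoids, alpha-1-acid glycoproteins) bind drugs and lipids in plasma, Lcn2 (lipocalin-2) sequesters bacterial siderophores, Crp (C-reactive protein) is a pentraxin that responds weakly to inflammation in the mouse, and Itih4 encodes an inter-alpha-trypsin inhibitor heavy chain.

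Levels are given as CPM, the read count of a gene scaled to a common library size after TMM scaling, fold changes are given on the log2 scale with their standard error (SE), and a gene was called changed at an adjusted p-value of edgeR's quasi-likelihood test under 0.05 with a fold change of at least 1.5. Between 13588848 and 30719161 reads fell on genes in each library (median 18011825). Pkm, the targeted gene, went against the labels. At 24 h its mean was 87.6 CPM with vehicle and 82.97 CPM with TCDD in libraries labelled WT, and 161 CPM and 429 CPM in libraries labelled PkmΔDRE, so groups are named throughout by the labels of their libraries. Whether the labels give the true genotypes, or are exchanged, was not tested. Cyp1a1, the classical AHR target, was called induced in 10 of the 18 comparisons of TCDD with vehicle. In 4 libraries labelled WT its level went against the treatment label, at 1.15 CPM in replicate 4 of TCDD at 2 h (6.24 to 29.8 CPM in the others of its group), 29.2 CPM in replicate 4 of TCDD at 72 h (3386 to 6764 CPM), 3285 CPM in replicate 1 of vehicle at 48 h (1.34 to 2.37 CPM) and 1717 CPM in replicate 3 of vehicle at 96 h (17.9 to 114.1 CPM).

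A pair of PkmΔDRE vehicle libraries stood apart, in the acute phase genes and in other genes. Replicate 4 at 4 h held 21.02 CPM of Saa1, 25.9 CPM of Crp and 205 CPM of Itih4, where the other 3 libraries of its group held 911 to 1286, 414 to 669 and 3375 to 4386 CPM. Replicate 4 at 96 h held 1343 CPM of Saa1, 393 CPM of Crp and 5054 CPM of Itih4, where the other 3 held 18.2 to 77.9, 16.1 to 42.1 and 193 to 506 CPM. Alb, the albumin gene, was at 7957 CPM in the 4 h library and 92155 to 106889 CPM in the others of its group. In the 96 h library it was at 74152 CPM (8983 to 12133 CPM in the others). Pkm was at 502 CPM (54.5 to 224 CPM) in the 4 h library and at 91.9 CPM (346 to 807 CPM) in the 96 h library. The first library had levels seen elsewhere at late hours and the second had levels seen elsewhere at early hours. Values without both are given beside the results that turn on them.

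The members lie on 6 chromosomes of the mouse genome (GENCODE M21, GRCm38). Saa3 (chromosome 7, 46711998 to 46715700, minus strand), Saa1 (46740497 to 46742980, minus strand) and Saa2 (46751790 to 46754313, plus strand) lie close together, with Saa4 (46727998 to 46732603) between Saa3 and Saa1. Saa1 and Saa2 are transcribed away from each other. Hpx lies on the same chromosome at 105591613 to 105600137 on the minus strand. Orm1 (chromosome 4, 63344560 to 63348163) and Orm2 (63362449 to 63365878) lie on the plus strand with Orm3 between them. Hp lies on chromosome 8 (109575128 to 109579172, minus strand), Lcn2 on chromosome 2 (32384633 to 32388252, minus strand), Crp on chromosome 1 (172698055 to 172833031, plus strand) and Itih4 on chromosome 14 (30886476 to 30902353, plus strand). The main transcripts of Saa1 and Saa2 were identical at 93.9% of 609 aligned bases with a longest shared run of 99 bases, and those of Orm1 and Orm2 at 705 of 775 bases. Reads that fall in shared stretches cannot be assigned to 1 copy, so the split between Saa1 and Saa2 and that between Orm1, Orm2 and Orm3 are uncertain.

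The 250 bases before the transcription start were available from RefSeq (GRCm38.p6) for 8 of the 10 genes. The promoters of the 3 serum amyloid genes and of Orm2 are printed because these 4 genes differed between the labels at 8 h, and that of Crp because its course differed from theirs. Each is written 5′ to 3′ on the strand of its gene, and capitals mark a match to the C/EBP-type motif TTGCNNAA on either strand.
Saa1, chr7:46742981-46743230, minus strand: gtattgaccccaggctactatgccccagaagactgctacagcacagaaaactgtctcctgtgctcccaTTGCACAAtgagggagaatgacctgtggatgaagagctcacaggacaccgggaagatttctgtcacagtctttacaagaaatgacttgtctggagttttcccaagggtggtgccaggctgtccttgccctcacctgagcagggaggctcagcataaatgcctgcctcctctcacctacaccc
Saa2, chr7:46751583-46751832, plus strand: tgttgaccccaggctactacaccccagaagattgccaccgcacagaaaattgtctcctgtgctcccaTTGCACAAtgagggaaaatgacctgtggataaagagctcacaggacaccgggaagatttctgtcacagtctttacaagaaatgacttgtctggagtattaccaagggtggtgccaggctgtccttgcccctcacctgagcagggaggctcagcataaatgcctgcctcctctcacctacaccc
Saa3, chr7:46715677-46715926, minus strand: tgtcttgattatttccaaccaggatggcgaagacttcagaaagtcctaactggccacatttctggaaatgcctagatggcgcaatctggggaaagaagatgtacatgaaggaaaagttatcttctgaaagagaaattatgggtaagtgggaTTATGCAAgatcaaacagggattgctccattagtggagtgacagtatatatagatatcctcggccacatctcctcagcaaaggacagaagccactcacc
Orm2, chr4:63362199-63362448, plus strand: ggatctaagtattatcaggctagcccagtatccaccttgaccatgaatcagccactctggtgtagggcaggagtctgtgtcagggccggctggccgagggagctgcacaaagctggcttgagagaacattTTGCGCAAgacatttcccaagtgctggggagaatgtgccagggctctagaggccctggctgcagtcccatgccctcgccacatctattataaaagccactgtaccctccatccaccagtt
Crp, chr1:172697806-172698055, plus strand: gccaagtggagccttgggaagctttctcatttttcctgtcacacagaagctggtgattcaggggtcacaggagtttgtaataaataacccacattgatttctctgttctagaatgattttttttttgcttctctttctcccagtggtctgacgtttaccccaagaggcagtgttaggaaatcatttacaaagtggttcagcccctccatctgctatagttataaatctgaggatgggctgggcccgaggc

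The C/EBP-type motif matched in 6 of the 8 promoters (Saa1, Saa2, Saa3, Hpx, Orm2 and Lcn2), where 9.56% of 32851 RefSeq promoters of the same length held it. The STAT-type motif TTCNNNGAA matched in Itih4 alone, with 7.02% of all promoters. The DRE core GCGTG (28.2% of all promoters) matched in none of the 8 windows. The Saa1 and Saa2 promoters were identical at 238 of 251 aligned columns (94.8%). These matches describe the letters in the window and were not tested as binding sites.

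In vehicle-treated hepatocytes most of these transcripts fell over the days in culture. The comparison of each later hour with 2 h gave 71 calls in 160 tests, of which 70 were falls, over 2 labels, 8 hours and 10 genes. Of all tests over all genes in the same comparisons, 35.3% were called and 15.7% were falls. By 120 h all 10 genes had fallen in PkmΔDRE libraries (49.4% of 15968 genes were called, 22.7% as falls) and 9 of 10 in WT libraries (57.9% of 15862 genes, 24.5% as falls). The median log2 fold change of the members from 2 to 120 h was -3.84 in WT and -5.03 in PkmΔDRE libraries, where the median of all genes tested was 0.21 and 0.24.

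**Figure D1:**
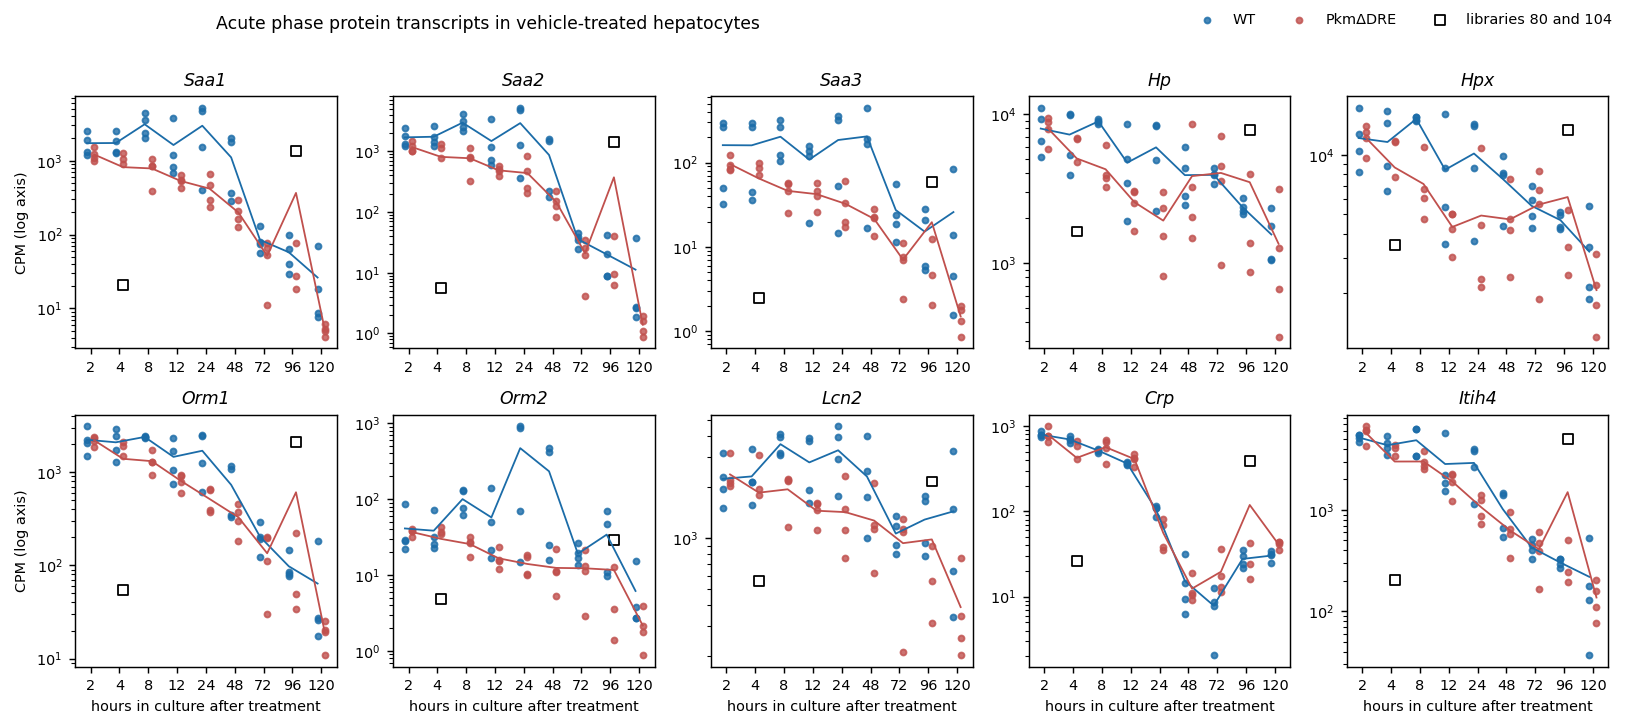
CPM (log axis) of each of the 10 genes against the hour in vehicle-treated libraries labelled WT (blue) and PkmΔDRE (red), where each point is 1 library, each line joins the group means and open squares mark the pair of PkmΔDRE libraries that stood apart, at 4 and 96 h. Saa1 and Saa2 dropped between 48 and 72 h in WT, Crp reached its lowest level at 48 to 72 h and was higher at 96 and 120 h, and Hp, Hpx and Lcn2 changed least.

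Of the serum amyloid genes, Saa1 and Saa2 fell furthest of all members by 120 h in both labels. Saa1 in WT vehicle libraries was at 1901, 2502, 1308 and 1199 CPM at 2 h, at 4770.4, 5202, 398 and 1535 CPM at 24 h and at 1786, 2006, 284 and 363 CPM at 48 h. These hours overlapped, and replicates 1 and 2 were well above the others at 24 and 48 h. At 72 h the level was 55.9, 78.6, 75.5 and 129.5 CPM, below all 2 h and 48 h libraries, and at 120 h it was 7.76, 70.1, 18.2 and 8.72 CPM. The log2 fold change against 2 h was -4.55 (SE 0.78, adjusted p = 1e-05) at 72 h and -6.23 (SE 0.85, adjusted p = 2e-07) at 120 h. The step from 48 to 72 h was itself called, at -3.72 for Saa1 (adjusted p = 0.0164) and -4.61 for Saa2 (adjusted p = 0.0128), in a step where 0.517% of all genes were called.

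Saa2 followed Saa1 and fell further. It went from 1697 ± 548 CPM (SD, n = 4) at 2 h to 11.3 ± 17.7 CPM at 120 h in WT, a log2 fold change of -7.42 (SE 1.04, adjusted p = 3.1e-07). Saa3, the least abundant of the family, was spread over 32.3 to 294 CPM at 2 h and was not called until 72 h (-2.78, adjusted p = 0.0324). In PkmΔDRE vehicle libraries the 120 h libraries lay closer together. Saa1 was at 994, 1090, 1536 and 1230 CPM at 2 h and at 5.23, 4.93, 4.13 and 6.22 CPM at 120 h, a log2 fold change of -8.08 (SE 1.16, adjusted p = 4.6e-06), with -9.89 for Saa2 and -6.20 for Saa3.

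The hemoglobin and heme binders Hp and Hpx, the most abundant members, fell least among the genes called in both labels at 120 h. Hp went from 7957 ± 2610.4 to 1550.2 ± 625 CPM in WT (-2.55, SE 0.41, adjusted p = 3.8e-06) and from 7982 ± 1582 to 1343 ± 1251 CPM in PkmΔDRE (-2.77, SE 0.69). Hpx went from 12166 ± 3884 to 3245 ± 1676 CPM in WT (-2.09, SE 0.42, adjusted p = 6.5e-05) and from 12200.3 ± 1879 to 2074 ± 822 CPM in PkmΔDRE (-2.75, SE 0.55). In WT Hp was first called at 48 h (-1.22) and Hpx at 72 h (-1.34), while in PkmΔDRE Hpx was called at 12 h (-1.60) and Hp at 24 h (-2.21) and again at 120 h only.

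Of the orosomucoids, Orm1 was called lower from 48 h on in WT. Its mean in WT was 2230.3 ± 679 CPM at 2 h and 63.8 ± 80.8 CPM at 120 h (-5.31, SE 0.65, adjusted p = 2.2e-08), and in PkmΔDRE 2199.7 ± 237 and 18.99 ± 6.01 CPM (-7.05, SE 1.05). Orm2 was the single member with a called rise against 2 h. In WT vehicle libraries it was at 28.04, 85.5, 21.9 and 29.03 CPM at 2 h and at 877, 918, 14.8 and 70.6 CPM at 24 h, so that replicates 1 and 2 but not 3 and 4 were above all 2 h libraries. The log2 fold change at 24 h was 3.36 (SE 1.05, adjusted p = 0.0086), and without replicate 1 of every group it was 2.74 and no longer called. At 120 h Orm2 had fallen in both labels, by 2.94 and 4.28 on the log2 scale.

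Lcn2 in WT was the exception to the fall at 120 h. It was at 1956, 3202, 1501 and 2296 CPM at 2 h and at 641, 1489, 3284 and 341 CPM at 120 h, and these groups overlapped (-0.83, adjusted p = 0.12). It was called lower at 72 h alone (-1.27, adjusted p = 0.021). In PkmΔDRE it fell from 2379 ± 532 to 390.5 ± 253 CPM (-2.80, SE 0.58). Itih4 fell in both labels, from 5195 ± 402 to 219 ± 217 CPM in WT (-4.74, SE 0.56, adjusted p = 1.1e-08) and from 5769.7 ± 1070.2 to 136.8 ± 54.8 CPM in PkmΔDRE (-5.60, SE 0.86).

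Crp had its own course, and in WT it was the first member called lower and the only member called higher in a later step. With vehicle in WT it was at 788, 864, 735 and 791 CPM at 2 h, 489 to 538 CPM at 8 h, 346 to 382 CPM at 12 h and 85.5 to 115.4 CPM at 24 h, with no overlap between these hours. It was then at 6.20, 14.4, 31.3 and 9.35 CPM at 48 h and at 8.75, 7.80, 2.06 and 12.7 CPM at 72 h, a log2 fold change of -6.85 against 2 h (SE 0.41, adjusted p = 5.3e-15). The steps from 12 to 24 h (-1.82) and from 24 to 48 h (-2.82) were called, among 7.34% and 8.06% of all genes. At 96 h Crp was at 23.8, 21.5, 30.1 and 35.3 CPM and at 120 h at 33.9, 31.03, 24.9 and 31.2 CPM, above all 72 h libraries. The rise from 72 to 96 h was called (1.80, SE 0.34, adjusted p = 0.00677; 0.561% of all genes), though not without replicate 1 of every group (1.92) or without replicate 2 (1.91). In PkmΔDRE libraries Crp was at 18.98, 11.2, 9.23 and 10.3 CPM at 48 h and at 41.1, 35.6, 43.5 and 43.7 CPM at 120 h, and this pair of hours was not tested.

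The hours at which members passed the test differed between the labels. In WT no member was called against 2 h at 4 h, where 2.89% of all genes were called, or at 8 h (31.9%). There was 1 called at 12 h (35.6%), with 2 at 24 h (45.8%) and 4 at 48 h (51.5%), and then 9 at 72 h (53.8%) and 8 at 96 h (53.6%). In PkmΔDRE none was called at 4 h (3.86%) or 8 h (11%) and 1 was called at 12 h (24.1%). By 24 h there were 5 (33.2%), by 48 h there were 8 (37.5%), and the number was 9 at 72 h (42.3%) and 5 at 96 h (30.8%). Where none was called by edgeR, no member had an unadjusted p under 0.05, and DESeq2 called none. The share of members called was below that of all genes up to 12 h and above it from 72 h, in both labels. Whether the labels differ in the timing was not tested as such. Without the pair that stood apart all 10 members were called at 96 h in PkmΔDRE, and the total rose from 71 to 87. The share of all genes called without the pair is not given here, so this gain is not read as a result about the members.

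Of the 12 called steps between neighbouring hours, 6 were the fall from 96 to 120 h in PkmΔDRE libraries, where 2.45% of all genes were called. This step rests largely on the 96 h library that stood apart. With it the log2 fold change was -6.20 for Saa1, -8.10 for Saa2, -3.73 for Saa3, -5.04 for Orm1, -2.43 for Orm2 and -3.49 for Itih4. Without the pair that stood apart it was -2.96, -3.67, -2.03, -2.38, -1.38 and -1.15, and the last pair was no longer called. The step from 24 to 48 h in WT was called for Itih4 (-1.56, adjusted p = 0.0391).

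Markers of hepatocytes fell over the same hours. Their summed level (Alb, Apoa1, Ttr, Cps1 and Asgr1) was 116780 to 160086 CPM at 2 h and 2536 to 16338 CPM at 120 h in WT vehicle libraries, and 146936 to 198744 and 6776 to 8652 CPM in PkmΔDRE. Macrophage markers summed to 167 to 273 CPM at 2 h and 15.8 to 65.2 CPM at 120 h in WT, and cholangiocyte markers to 34.2 to 132.5 and 140.3 to 193 CPM. Across all libraries Ptprc, the leukocyte marker, was at most 1.95 CPM and 4 neutrophil markers summed to at most 3.15 CPM. In these bulk libraries fewer cells of a type and less RNA per cell cannot be told apart, and the part of cell composition in the fall was not tested.

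The genes around the members in the acute phase pathway, from fixed lists, moved in the same comparisons as follows. Over all genes, the share called at each hour ran from 2.89% (4 h) to 57.9% (120 h) in WT. In PkmΔDRE it ran from 3.86% (4 h) to 49.4% (120 h). The 20 other positive acute phase genes were called in 211 of 320 tests, with 9 rises that were all of Cp (ceruloplasmin, the copper carrier), which went from 311 ± 104.8 to 1859 ± 397 CPM between 2 and 120 h in WT. Among those that fell were Fgb, the fibrinogen beta chain (14 of 16 tests), and Hamp, which encodes the iron hormone hepcidin (13 of 16). The 8 negative acute phase genes, whose plasma proteins drop in inflammation, had 94 calls, all of them falls. Alb (albumin) was among them with 12. Members were called in 44.4% of tests, other positive acute phase genes in 65.9% and negative ones in 73.4%, so genes of both directions in inflammation were lower in culture. The differences between these lists were not tested.

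Of the cytokines that induce the members, Il6 was at most 0.707 CPM in any library, Il1b was at most 1.03 CPM and Tnf at most 2.03 CPM. Lif, a relative of interleukin-6 that also signals through gp130, was the cytokine with a level, and it rose in 11 of 16 tests. By hour, 2.89% to 57.9% of all genes were called in these comparisons in WT and 3.86% to 49.4% in PkmΔDRE. The lists were not compared with all genes by a test. In the IL-6 receptor and STAT3 list 63.1% of 176 tests were called, 46 of them as rises. Socs3, the feedback inhibitor induced by STAT3, fell in 16 of 16 tests and Stat3 in 15 of 16, while Tyk2, a receptor-bound kinase, and Pias3, an inhibitor of STAT3, rose in 14 of 16 each. In the IL-1, TNF and NF-kB list 96 of 192 tests were called with 7 rises, and Il1r1, the interleukin-1 receptor, and Nfkbia, the NF-kB inhibitor, fell in 14 of 16 each. Cebpa fell in 14 of 16 tests, Hnf4a in 10 and Cebpb and Cebpd in 9 each, within 44 calls in 80 tests of C/EBP and hepatocyte nuclear factors. The glucocorticoid receptor and its targets had 56 calls (50% of tests) with 10 rises, with falls of Dusp1 in 15 and of Tat in 12. Receptors and heme handling genes (with Hmox1, heme oxygenase, falling in 12) were called in 33 of 80 tests with 1 rise.

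The ratio of Saa1 to Saa2 counts changed with time in culture. It was 0.894 to 1.08 in the WT vehicle libraries at 2 h and 1.86 to 6.65 at 120 h, and 2.5 to 4.70 at 120 h in PkmΔDRE vehicle libraries, with no overlap with 2 h in either label. With TCDD it was 4.16 to 6.64 and 2.58 to 9.67 at 120 h. The mean log2 ratio went from 0.01 to 1.86 in WT vehicle, 0.16 to 2.41 in WT TCDD, 0.05 to 1.93 in PkmΔDRE vehicle and 0.10 to 2.52 in PkmΔDRE TCDD groups. Each of the 4 differences had p = 0.02857 in a two-sided exact permutation test (adjusted p = 0.02857 over the 4 tests), which is the smallest p that 4 against 4 libraries can give. The ratio was chosen for test after its values were seen. Late ratios rest on low levels of Saa2. In WT vehicle libraries at 120 h it was at 37.8 CPM in replicate 2 and at 1.86 to 2.74 CPM in the others. The split of reads between the copies is uncertain, and its part in the ratio was not tested. Of the pair that stood apart, the 96 h library had a ratio of 0.935 and the 4 h library a ratio of 3.72.

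**Figure D2:**
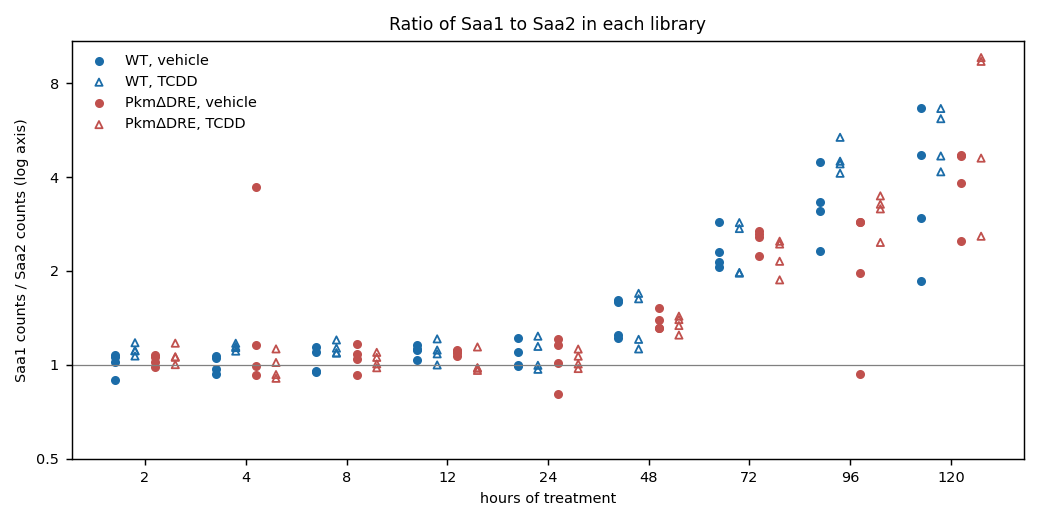
Ratio of Saa1 to Saa2 counts (log axis) in each library against the hour, by label (blue WT, red PkmΔDRE) and treatment (filled vehicle, open TCDD), with a line at 1. Ratios lay near 1 up to 24 h and above 1 from 48 h in all libraries but the PkmΔDRE vehicle one at 0.935 at 96 h, and 1 library lay at 3.72 at 4 h.

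TCDD was compared with vehicle at each hour within each label, to ask whether the AHR ligand changed these transcripts. Of the 180 tests of members, 8 were called, all as falls and all in libraries labelled WT, and 6 of them at 8 h. In this comparison 37.4% of 12392 genes were called, 13.6% as falls, and all 10 members were lower with TCDD. The median log2 fold change was -1.13 for the members and 0.00 for all genes tested. In WT vehicle libraries 9 of 10 members were higher at 8 h than at 4 h (median 0.31, with 19% of all genes called). From 8 to 12 h all 10 were lower with vehicle (median -0.90, with 5.87% of all genes called). No member was called by edgeR in either step. The part of this vehicle course in the difference from TCDD was not tested.

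At 8 h in WT, Lcn2 was at 1629, 2205, 1268 and 1833 CPM with TCDD and at 3952, 4144, 3176 and 3089 CPM with vehicle, so the groups did not overlap (-1.08, SE 0.19, adjusted p = 0.00161). Hpx was at 7779, 7236, 3441 and 9097 CPM with TCDD and at 14967, 15455, 15530.1 and 14858 CPM with vehicle (-1.17, SE 0.25, adjusted p = 0.00302). Hp was at 4767, 4863, 2237 and 6240.2 CPM with TCDD and at 8951, 8569.7, 9221 and 8831 CPM with vehicle (-1.01, SE 0.25, adjusted p = 0.00652). In all 3 genes the vehicle libraries lay close together and all 4 TCDD libraries lay below them, with replicate 3 lowest. Orm1 went from 2391 ± 58.1 to 1327 ± 366 CPM (-0.88, SE 0.19, adjusted p = 0.00365), again with no overlap. Saa2 was at 1007, 669.5, 371 and 1875 CPM with TCDD and at 2495, 2149, 4074 and 3130.1 CPM with vehicle (-1.62, SE 0.39, adjusted p = 0.00591). Saa1 was at 1138, 731, 404 and 2252 CPM with TCDD and at 2369, 2045, 4487 and 3566 CPM with vehicle, and here replicate 4 of TCDD overlapped the vehicle group (-1.49, SE 0.44, adjusted p = 0.0168). Without replicate 3 of vehicle the fold change of Saa1 was -1.28 and no longer called. The 5 other falls were called whichever of the 8 libraries was left out.

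The other 4 members were lower with TCDD at 8 h and did not pass the test. The log2 fold change was -1.25 for Saa3 (adjusted p = 0.174), -1.26 for Orm2 (adjusted p = 0.0711), -0.78 for Itih4 (adjusted p = 0.0549) and -0.19 for Crp (adjusted p = 0.225). Crp moved least, from 515 ± 21.9 CPM with vehicle to 463 ± 45.4 CPM with TCDD. Values of the libraries themselves moved with this comparison. Reads on no gene were 25.7% to 48% with TCDD and 25.1% to 30.1% with vehicle, hepatocyte markers summed to 60579 to 68336 and 70355 to 82522 CPM, macrophage markers to 63.3 to 119.3 and 159.5 to 198 CPM and stellate markers to 41.5 to 86.8 and 10.9 to 13.7 CPM. Their part in the fall was not tested.

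**Figure D3:**
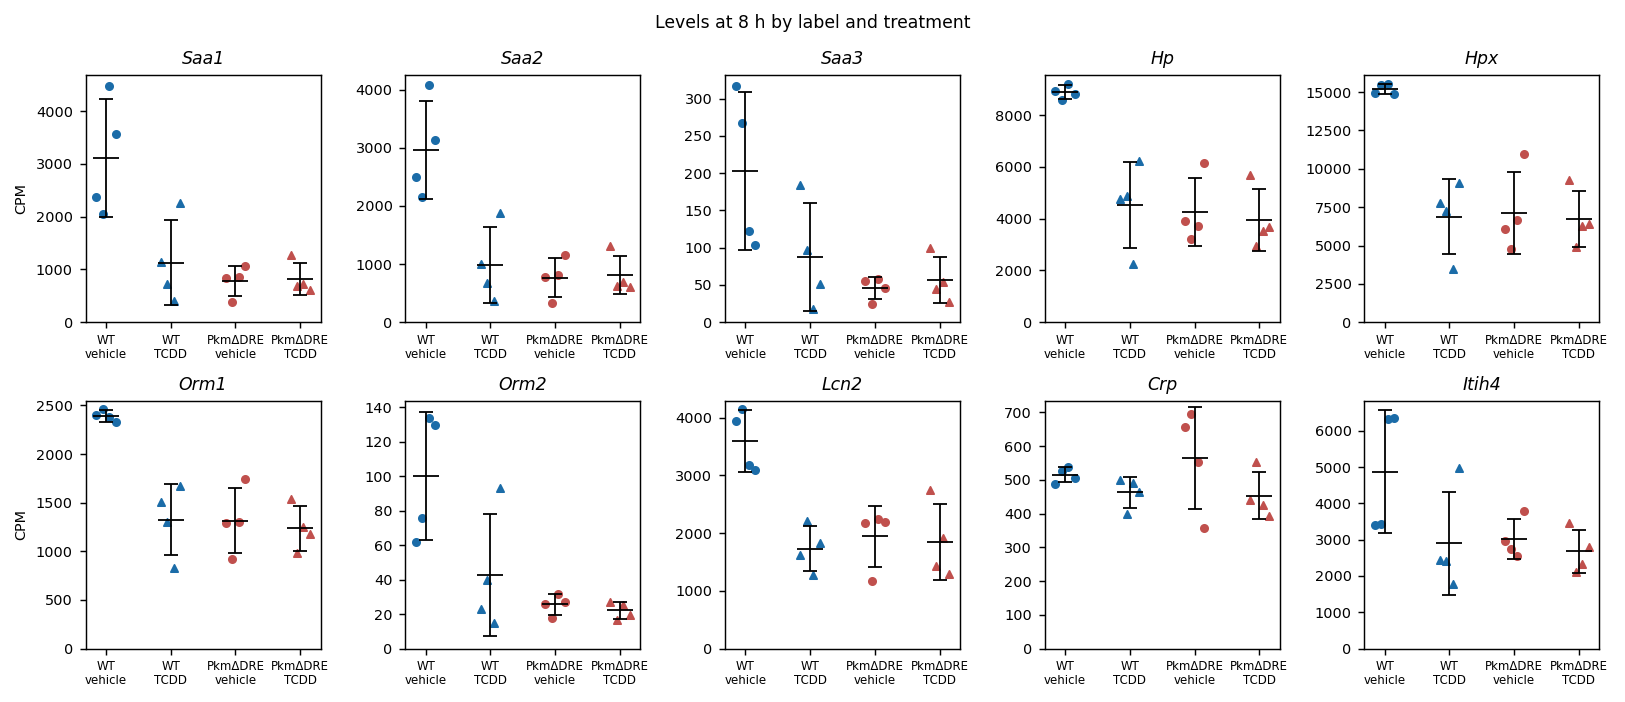
CPM of each of the 10 genes at 8 h in the 4 groups, with 1 point per library, the mean as a long bar and 1 SD as whiskers. For Hp, Hpx, Orm1 and Lcn2 the WT vehicle libraries lay above the libraries of the other 3 groups, while Crp lay at a similar level in all 4.

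In libraries labelled PkmΔDRE no member was called at any hour by edgeR in the fit with no block for library order (0 of 90 tests, with 12 at an unadjusted p under 0.05, and 0 by DESeq2, which gave no adjusted p for 5). Over all genes 0.281% of these tests were called, 7.17% had an unadjusted p under 0.05 and 1.59% were called by DESeq2. At 8 h the median of the members was -0.10, with 0.106% of all genes called, and Saa1 was at 1276, 688, 734 and 614 CPM with TCDD and at 839.7, 385, 849 and 1069 CPM with vehicle. An interaction term tested whether the labels differed in their response at 8 h. The difference in log2 response was 1.57 for Saa2 (SE 0.56, adjusted p = 0.292), 1.43 for Saa1 (SE 0.57, adjusted p = 0.293), 0.96 for Hpx and 0.86 for Lcn2, higher in PkmΔDRE. None of the 90 interaction tests of members was called by edgeR (10 at an unadjusted p under 0.05, 6 of them at 8 h, and 0 by DESeq2, which gave no adjusted p for 5), where 0 of 13333 genes were called at 8 h and 15.9% had an unadjusted p under 0.05. With no filter on low counts 3 of these tests were called, those of Saa1 (1.48), Saa2 (1.61) and Saa3 (1.43) at 8 h, where 0.135% of all tests over the 9 hours were called, so whether the labels differed in the response to TCDD depended on the filter.

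At the other hours the members were lower with TCDD in WT at 12 h (10 of 10; 0.0321% of all genes called) and 24 h (10 of 10; 0.373%), with a median of -0.35 and -0.23, and none was called (1 of these 20 tests at an unadjusted p under 0.05, and 0 by DESeq2). At 96 h all 10 were lower again (15.1% of all genes called) and 1 was called, Itih4, at 246, 177, 169 and 172.1 CPM with TCDD and at 325, 326, 291 and 267 CPM with vehicle. The groups did not overlap (-0.60, SE 0.14, adjusted p = 0.00764), but the fold change lay close to the threshold of 1.5 and the call was lost without vehicle replicate 1 (-0.56) or 2 (-0.55) or TCDD replicate 2 (-0.57), 3 (-0.55) or 4 (-0.57). At 120 h Crp was called (1.46% of all genes), at 10.1, 9.93, 18.1 and 9.44 CPM with TCDD and at 33.9, 31.03, 24.9 and 31.2 CPM with vehicle (-1.35, SE 0.21, adjusted p = 0.0129), and the call was lost without TCDD replicate 1 (-1.28), 2 (-1.27) or 4 (-1.25). At 2, 4, 48 and 72 h no member was called in WT by either tool and none had an unadjusted p under 0.05, where edgeR called 0 of 12097, 0 of 12434, 1 of 13105 and 0 of 13387 genes. At 2 h 9 of 10 were higher with TCDD, and replicate 4 of TCDD, whose Cyp1a1 was at 1.15 CPM, held the highest value of its group for all members but Saa3, such as 9988 CPM of Saa1 (1062 to 1702 in the others).

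In PkmΔDRE libraries 9 of 10 members were lower with TCDD at 2 h (median -0.21; 0 of 12132 genes called) and all 10 were higher at 4 h (median 0.43; 0 of 12062 genes called). Without the 4 h vehicle library that stood apart, 6 of 10 were higher at 4 h (median 0.05). At 12 h 9 of 10 were higher (median 0.68; 0.024% of all genes called), and Saa1 was at 1453, 429, 1604 and 757 CPM with TCDD and at 632, 431, 541 and 524 CPM with vehicle, a difference of 0.96 (SE 0.38, adjusted p = 0.5085) with overlapping groups. At this hour 5 of 10 members had an unadjusted p under 0.05 in edgeR's test, where 9.53% of all genes did. At 96 h all 10 were lower (median -2.48; 0.0793% of all genes called), and this rests on the 96 h vehicle library that stood apart. With it the log2 fold change was -4.22 for Saa1, -5.84 for Saa2 and -2.40 for Crp, and without the pair that stood apart it was -0.93, -1.36 and -0.18. Hp, Hpx, Orm2 and Lcn2 turned from lower to higher without them, at 0.17, 0.59, 0.51 and 0.20. None of these passed the test. At 24 h (0.016% of all genes called, all as rises) and 48 h (0.404%, with 0.334% as rises and 0.0699% as falls) 7 of 10 were higher with TCDD, and 6 were higher at 72 h (1.13%, with 0.808% as rises), while 8 were lower at 120 h (0.633%, with 0.216% as falls).

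**Figure D4:**
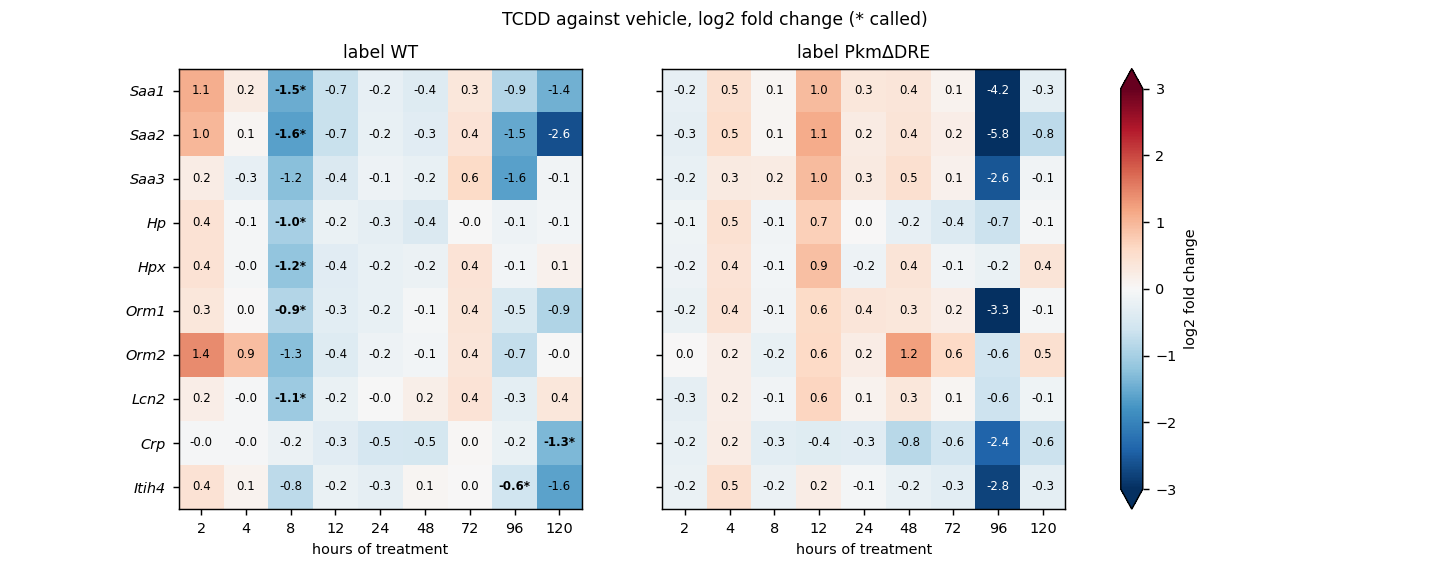
Log2 fold change of TCDD against vehicle for the 10 genes (rows) at 9 hours (columns) in libraries labelled WT (left) and PkmΔDRE (right), with blue for lower and red for higher with TCDD, a colour scale that ends at 3 in each direction and an asterisk on the 8 called values. The calls lie in the WT panel at 8, 96 and 120 h, and the large negative values at 96 h in the PkmΔDRE panel rest on 1 vehicle library that stood apart.

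Averaged over hours, Crp was lower with TCDD late in both labels. Over 24 to 120 h its mean log2 effect was -0.92 in PkmΔDRE (SE 0.27, adjusted p = 0.0296), which was called among 3.48% of all genes, and -0.53 in WT (SE 0.15, adjusted p = 0.0215), which stayed under the fold threshold where 3.18% of all genes were called. Without the pair that stood apart the effect in PkmΔDRE was -0.49 and was no longer called, and the call was also lost without replicate 1 (-0.87), 2 (-0.94) or 4 (-0.47) of every group. Over 2 to 12 h no member was called in WT, where 17.8% of all genes were called, or in PkmΔDRE (0.479%). By edgeR 0 of these 20 tests had an unadjusted p under 0.05. Saa2 had a mean effect of -0.88 in WT (adjusted p = 0.16) and -1.13 in PkmΔDRE (adjusted p = 0.0616) over 24 to 120 h, and neither passed. Without the pair that stood apart the value in PkmΔDRE was -0.26 (adjusted p = 0.6093).

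The other genes of the pathway, from the same lists, were tested in the same comparisons of TCDD with vehicle, and the lists were not compared by a test. Over the 18 comparisons 3.14% of all tests were called, and 4.44% of those of members. Il1r1 rose in 8 comparisons, among them WT at 24 h, where it went from 19.8 to 174.7 CPM (3.22), and Nfkbiz, a nuclear co-regulator of NF-kB, rose in 3, within 16 calls in 216 tests of the IL-1, TNF and NF-kB list. In the IL-6 receptor and STAT3 list 6 of 198 tests were called, with rises at 8 h in WT of Jak2 (1.70), Il6st, which encodes gp130 (1.21), Jak1 (1.21) and Il6ra (1.11). In that comparison 37.4% of all genes were called, 23.8% as rises and 13.6% as falls. Cebpb fell at 8 h in WT (-1.01), from 163 ± 19.3 to 83.1 ± 21.02 CPM, and Cebpd at 96 h (-0.88), the 2 calls in 90 tests of C/EBP and hepatocyte nuclear factors. At 96 h in WT 15.1% of all genes were called, 5% as falls. The other positive acute phase genes were called in 13 of 357 tests, of which 3 were rises, and the negative ones in 8 of 140, of which 1 was a rise. The cytokine list had 0 calls in 23 tests by edgeR, and the glucocorticoid receptor and its targets had 5. DESeq2 called Lif lower with TCDD in WT at 24 h (-0.80, adjusted p = 0.04585), where it called 2.07% of all genes. It also called Lif lower in PkmΔDRE at 72 h (-1.02, adjusted p = 0.027), where it called 3.21% of all genes. AHR targets, a check of the treatment, were called in 49 of 94 tests, and all 49 were rises.

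Between the labels, vehicle-treated libraries differed in members at 8 h. PkmΔDRE was lower in 9 of 10 members, 4 were called, and these were 4 of the 7 genes called among 12157 (0.0576%). Orm2 was at 26.1, 17.6, 31.8 and 27.05 CPM in PkmΔDRE and at 61.5, 75.6, 133.6 and 129.9 CPM in WT (-1.96, SE 0.27, adjusted p = 0.0169). Saa1 was at 839.7, 385, 849 and 1069 CPM in PkmΔDRE and 2369, 2045, 4487 and 3566 CPM in WT (-1.98, SE 0.32, adjusted p = 0.0377). Saa2 (-1.94, SE 0.32, adjusted p = 0.0422) and Saa3 (-2.13, SE 0.36, adjusted p = 0.0422) were lower by a similar amount. Hp (-1.06), Hpx (-1.09), Orm1 (-0.86) and Lcn2 (-0.88) were not called, with an adjusted p from 0.138 to 0.332. Crp did not share the difference, at 565 ± 151 CPM in PkmΔDRE and 515 ± 21.9 CPM in WT (0.14). The WT vehicle libraries of this comparison are those of the comparison with TCDD at 8 h, so the values of these members in the 2 comparisons are not independent.

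These 4 calls were unstable. With 1 of the 8 libraries left out, Orm2 was called in 7 of 8 cases, Saa1 and Saa3 in 3 and Saa2 in 2, with fold changes from -2.26 to -1.77 in the cases that lost the call, which were the removal of PkmΔDRE replicate 1 for Orm2, of WT replicate 1, 3 or 4 or PkmΔDRE replicate 1 or 3 for Saa1, of any WT replicate or PkmΔDRE replicate 1 or 3 for Saa2 and of WT replicate 1 or 2 or PkmΔDRE replicate 1, 2 or 3 for Saa3. With Saa1 and Saa2 summed and Orm1, Orm2 and Orm3 summed, no member was called between the labels, while DESeq2 called 8 of 10 members at 8 h, where it called 0.584% of all genes. Hepatocyte markers summed to 78779 to 100810 CPM in PkmΔDRE and 70355 to 82522 CPM in WT at 8 h, and macrophage markers to 103.8 to 167 and 159.5 to 198 CPM. Their part in the difference was not tested.

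At the other 8 hours edgeR called no member between the labels in vehicle, with 34 of 80 tests at an unadjusted p under 0.05 and 11 calls by DESeq2 (5 at 12 h, 2 at 24 h and 4 at 48 h). Of all tests over all genes at these hours 7.59% had an unadjusted p under 0.05, and DESeq2 called 12.1%, 0.117% and 0.237% of genes at 12, 24 and 48 h. At 24 h all 10 were lower in PkmΔDRE, with 9 at an unadjusted p under 0.05 (3.53% of all genes), and edgeR called 0 of 12843 genes. The largest difference there was of Orm2 (-5.00, SE 1.13, adjusted p = 0.9805), at 9.96 to 18.2 CPM in PkmΔDRE and 14.8 to 918 CPM in WT, and the groups overlapped. At 12 h, where 3.68% of all genes were called (2.47% as lower and 1.22% as higher in PkmΔDRE), 9 of 10 members were lower. At 96 h 8 of 10 were higher in PkmΔDRE (0 of 13704 genes called), at 2.81 for Saa1 and 4.36 for Saa2, and without the library that stood apart these values were -0.52 and -0.16.

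At some hours the WT libraries of the same replicate number had similar levels of Orm2 or Saa3 in both treatments. At 24 h Orm2 was at 877, 918, 14.8 and 70.6 CPM with vehicle and at 726, 804, 14.7 and 71.7 CPM with TCDD. At 48 h Saa3 was at 166, 189, 447 and 16.8 CPM with vehicle and at 115.1, 139.1, 396 and 23.6 CPM with TCDD, and at 120 h replicate 3 was the highest in both treatments, at 83.7 and 86.4 CPM. The spread within a group was thus of the same size as, or larger than, the difference between treatments for these genes at these hours. At other hours the levels of the same replicate number were not alike. Orm2 in replicate 3 at 8 h was at 133.6 CPM with vehicle, the highest of its group, and at 14.8 CPM with TCDD, the lowest. In replicate 2 at 96 h it was at 69.5 CPM with vehicle and 11.7 CPM with TCDD. The labels give no replicate numbers, and the accession order was not taken as a pairing.

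**Figure D5:**
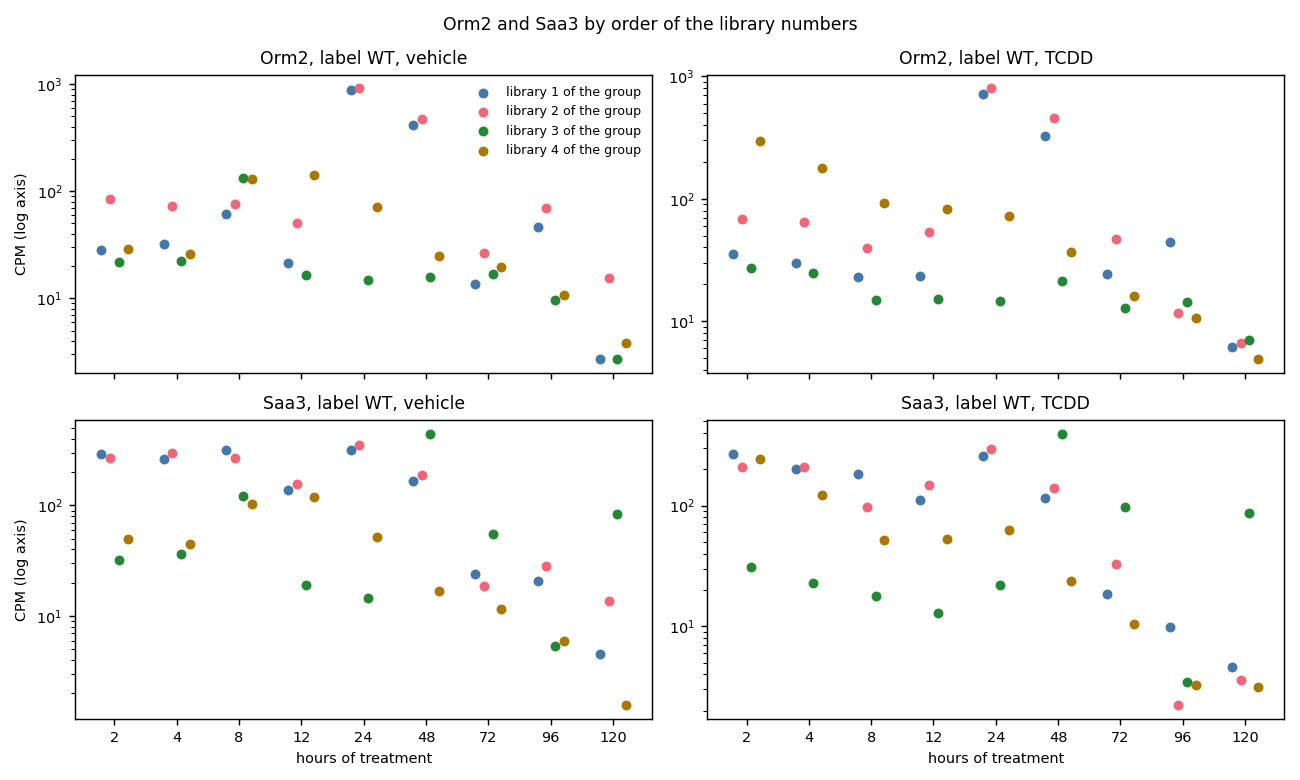
CPM (log axis) of Orm2 (top) and Saa3 (bottom) against the hour in libraries labelled WT with vehicle (left) and TCDD (right), where colours give the replicate number in accession order. Replicates 1 and 2 of Orm2 lay above the others at 24 and 48 h in both treatments, and replicate 3 of Saa3 lay highest at 48, 72 and 120 h in both.

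Per kilobase of exon the order of the members at 2 h in WT vehicle libraries was Hpx (8116 CPM per kb), Hp (4955), Orm1 (2878), Itih4 (1408), Lcn2 (854), Saa1 (697), Saa2 (674), Crp (231), Saa3 (61.8) and Orm2 (53.1). Neighbours that did not differ beyond their SD were Hpx and Hp, Hp and Orm1, Lcn2 and Saa1, Saa1 and Saa2, and Saa3 and Orm2. The exons of all transcripts of a gene were counted in its length, which made Saa1 2478 bases long where its main transcript has 609, so the level of the serum amyloid genes per kb is understated by this measure. At 120 h in WT the order was Hpx (2165 CPM per kb), Hp (965), Lcn2 (548), Orm1 (82.4), Itih4 (59.4), Saa1 (10.6), Saa3 (9.93), Crp (8.78), Orm2 (7.96) and Saa2 (4.47), and no pair of neighbours differed beyond their SD. In PkmΔDRE at 120 h Crp (11.9 CPM per kb) stood above Orm2 (2.80), Saa1 (2.07), Saa3 (0.575) and Saa2 (0.555), where at 2 h it had been below Saa1 and Saa2.

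Over the 36 group means the members fell into different company, as a description with no test, since all points share the course of the culture. Pearson's r of log2(CPM + 1) was 0.996 between Saa1 and Saa2, 0.985 between Saa1 and Orm1, 0.976 between Orm1 and Itih4, 0.959 between Hp and Hpx and 0.944 between Saa3 and Lcn2, and 0.256 between Crp and Orm2. Among 11573 other genes the patterns most like Saa1 were those of Cdhr5 (0.968), Fgl1 (0.967) and Apoa4 (0.966). Among the closest to Crp were Cps1 (0.988), a urea cycle enzyme, and Cyp2j5 (0.983). For Itih4 they were Itih3 (0.991), its neighbour on chromosome 14, C8b (0.987) and C4bp (0.985), which encode complement proteins. Lrg1, another acute phase gene, was among the closest 3 for Orm1 (0.977), Hp (0.924) and Hpx (0.918), and C3, complement component 3, was the closest for Hp (0.932). Saa2 was closest to Fgl1 (0.965), Saa3 to Apoa4 (0.895), and Orm2 (0.792) and Lcn2 (0.848) both to Slc11a2, an iron transporter.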

How the data were processed

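Expression was measured by RNA-Seq in 36 groups of 4 libraries of primary mouse hepatocytes. Per the submitters' processing notes, the authors checked reads with FastQC 0.11.3 (the study's methods give another version), trimmed them with Trimmomatic 0.39 and aligned and counted them with STAR 2.7 on GRCm39. The deposited files hold raw read counts per gene, of which the unstranded column was used, so reads of overlapping or antisense genes cannot be separated. Reads on no gene made up 16.8% to 48% of a library (median 24.2%) and stayed out of library sizes and tests. Each library held between 13588848 and 30719161 counts on genes, so low values carry a larger counting error.

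Groups came from the labels for strain, treatment and hour. Gene symbols, lengths and positions came from GENCODE M21 (GRCm38), which named 52083 of 55359 genes, and promoters from RefSeq, which held 8 of the 10 members. Counts were tested with edgeR 4.0.16 in R 4.3.3 (TMM scaling, robust quasi-likelihood test, filterByExpr with a minimum count of 10 and total of 15, Benjamini-Hochberg adjustment over all genes tested). A gene was called when its adjusted p was under 0.05 and it changed at least 1.5-fold. The comparisons were TCDD with vehicle at each hour (18), the difference of that response between labels (9), vehicle hours with 2 h and with the hour before (16 each), the labels in vehicle (9) and the mean TCDD effect over early or late hours (4). Comparisons with 2 h share the 2 h libraries. The named genes were the 10 members, and in other lists the genes called most often. Alternatives were DESeq2 1.42.0, RLE scaling, no filter, summed near-identical copies, a block for library order, a fit pooled over all groups, no fold threshold, and libraries left out. The scripts were tested on simulated data. The members and lists were chosen with earlier results of these data known, and the ratio of Saa1 to Saa2 and the removal of the PkmΔDRE vehicle replicate 4 at 4 and 96 h were chosen after their values were seen.

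The labels give no replicate numbers. Libraries were numbered within a group in accession order, which names a library and does not pair it with one of another group.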

Additional observations from a re-analysis of the deposited data

Results flagged for a closer look

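In 38 of 360 groups of 4 libraries (10 genes in 36 groups) the highest or lowest library lay far from the other 3 by Dixon's ratio at the 95% level, where chance flags about 1 in 20 groups. The 38 values came from 17 libraries.

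Replicate 4 of PkmΔDRE vehicle at 96 h was highest for Saa1 (1343 CPM, 18.2 to 77.9 in the others), Saa2 (1436), Orm1 (2131), Crp (393) and Itih4 (5054). Replicate 4 of WT TCDD at 2 h was highest for Saa1 (9988 CPM, 1062 to 1702 in the others), Saa2 (9366), Orm2 (299) and Itih4 (14582). Replicate 2 of WT vehicle at 120 h was highest for Saa1 (70.1 CPM, 7.76 to 18.2 in the others), Saa2 (37.8), Orm1 (185) and Orm2 (15.4), and replicate 3 of the same group for Saa3 (83.7).

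Replicate 3 of WT TCDD at 120 h was highest for Saa3 (86.4 CPM), Hp (3075), Hpx (5627), Lcn2 (5050.0) and Crp (18.1) and lowest for Itih4 (37.5). Replicate 1 of WT TCDD at 96 h was highest for Saa3 (9.81), Orm2 (44.2), Lcn2 (1826) and Itih4 (246). Replicate 1 of PkmΔDRE TCDD at 48 h was highest for Saa3 (64.4), Orm1 (807), Orm2 (82.5) and Lcn2 (2989).

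The other flags were single ones. In WT vehicle they were Orm2 at 2 h (85.5 CPM, replicate 2), Itih4 at 12 h (5769.7, replicate 4) and Orm1 at 96 h (147, replicate 2). In PkmΔDRE vehicle they were Lcn2 at 2 h (3169, replicate 3) and, as the lowest, at 8 h (1162, replicate 2). In PkmΔDRE TCDD they were Saa2 at 8 h (1305, replicate 1) and 96 h (9.79, replicate 4), Hpx at 72 h (6960.2, replicate 4) and, as the lowest, at 96 h (4039, replicate 2), and Itih4 at 72 h (447, replicate 3).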

How the results depend on the processing

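The 8 member calls of TCDD against vehicle by hour were 13 with a replicate block for library order, 9 with RLE scaling, 6 with no filter on low counts, 7 in the pooled fit, 10 with DESeq2 and 7 to 10 with 1 library left out. The block dropped Saa1 and Saa2 at 8 h in WT and added calls of Saa1, Saa2, Saa3, Hp and Hpx as higher at 12 h in PkmΔDRE. The labels give no replicate numbers, so the accession order was not taken as a pairing. Correlations of the same order were all over 0.1 in 3 of 9 WT hours (8, 24 and 48 h) and 2 of 9 PkmΔDRE hours (12 and 24 h), and 20 of 36 and 16 of 36 libraries were closest to their own order. The interaction gave 3 calls with no filter in place of 0, and 0 to 0 with 1 library left out. The 71 calls of vehicle hours against 2 h were 72 with RLE scaling, 59 with no filter, 82 with DESeq2, 76 with the block and 51 to 86 with 1 library of every group left out. The 12 called steps were 20 with DESeq2 and 5 to 13 with 1 library of every group left out. The 4 calls between labels were 10 with no filter, 0 with copies summed, 19 with DESeq2 and 0 to 8 with 1 library left out. The 1 call of a mean TCDD effect was 2 with RLE scaling, 0 with no filter, 2 without the 4 WT libraries whose Cyp1a1 went against the treatment label, 0 without the pair of PkmΔDRE libraries that stood apart, 3 with DESeq2, 2 with no fold change threshold and 0 to 2 with 1 library of every group left out. The causes of these changes were not tested. The share of all genes called also rose with DESeq2, from 37.4% to 41.1% for TCDD at 8 h in WT. Between the labels in vehicle at 12 h it rose from 3.68% to 12.1%. For most other alternatives this share is not given here, so the changes in count are not read as results about the members. No called value of a member changed sign under any of these alternatives, and the median of all genes moved by at most 0.1335 with RLE scaling and 0.1358 with DESeq2.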
